A study of Mus musculus with 32 samples.

Results

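The subject here is 8 genes that mark mast cells, Mcpt4, Cma1, Cpa3, Tpsb2, Tpsab1, Ms4a2, Fcer1a and Hdc, taken by name from the 33654 gene symbols of 4 expression tables of mouse tumors. All 8 were found in every table. They were picked because several of them had been seen to be much lower after week 2 in the tumor cell time course, so their levels there are a description with no test. The 8 genes were tested only in the other 3 tables; for other genes of that table the test over all genes is given. RNA-seq had been run on 32 libraries from the MMTV-PyMT model, in which the polyoma middle T oncogene, driven by the mammary tumor virus promoter, gives breast tumors. Tumor cells had been taken 2 weeks (3 libraries), 3 weeks (4) and 4 weeks (4) into tumor development, and CD8 T cells, the killer lymphocytes, from tumors of the same 3 weeks (3 libraries per week). A knockdown set added MMTV-PyMT tumor cells and CD8 T cells from xenografts labelled shMogat1, a hairpin RNA against Mogat1, or shCTRL, a control hairpin with genotype WT (n = 3 for each cell type and label). Strain, age, host and the number of animals or hairpins are not given in the sources used here, and no label says that libraries of a group came from separate animals, so p-values measure the spread between these libraries, which may be technical.

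Mast cells are granulated immune cells that live in connective tissue, close to vessels and ducts, including those of the mammary gland. Their granules hold proteases and histamine bound to proteoglycans, and they empty when antigen crosslinks IgE on the high-affinity IgE receptor or when other receptors are triggered. Stem cell factor, sensed by the receptor tyrosine kinase Kit, keeps them alive, and the transcription factors Gata2 and Mitf are needed for their gene program. Of the 8 genes, Mcpt4 and Cma1 encode chymases, Tpsb2 and Tpsab1 tryptases and Cpa3 the mast cell carboxypeptidase, all stored in granules. Ms4a2 and Fcer1a encode the beta and alpha chains of the IgE receptor. Hdc encodes histidine decarboxylase, which makes histamine and is also found in basophils, neutrophils and some other cells.

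The chymase and tryptase genes lie in clusters: Mcpt4 (chr14:56059629-56062313) and Cma1 (chr14:55941451-55944675) on chromosome 14, and Tpsb2 (chr17:25366305-25369098) and Tpsab1 (chr17:25343245-25345562) on chromosome 17. All are GRCm38 positions of the GENCODE M21 annotation, where each gene is annotated as protein coding. Promoter windows of 250 bases before to 50 bases after the start, from RefSeq on GRCm38.p6, matched 6 of the 8 genes, all but Tpsb2 and Tpsab1. Those of 3 granule protease genes that were low together after week 2 and that of Hdc, which kept more of its level, are printed, all on the minus strand. They are chr14:56062261-56062560 for Mcpt4, chr14:55944626-55944925 for Cma1, chr3:20242132-20242431 for Cpa3 and chr2:126618629-126618928 for Hdc. Capitals mark GATAA, the core that GATA factors such as Gata2 bind, searched on both strands and so shown in its reverse complement where it lies on the other one. They also mark a TATA box (TATAAA), searched on the printed strand alone, and no 2 capital runs overlap.
Mcpt4: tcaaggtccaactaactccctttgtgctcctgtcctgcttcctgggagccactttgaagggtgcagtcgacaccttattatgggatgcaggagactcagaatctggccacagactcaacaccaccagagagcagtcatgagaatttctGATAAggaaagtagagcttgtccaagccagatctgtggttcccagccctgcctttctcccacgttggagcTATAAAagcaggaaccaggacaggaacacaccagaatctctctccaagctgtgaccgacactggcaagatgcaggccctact
Cma1: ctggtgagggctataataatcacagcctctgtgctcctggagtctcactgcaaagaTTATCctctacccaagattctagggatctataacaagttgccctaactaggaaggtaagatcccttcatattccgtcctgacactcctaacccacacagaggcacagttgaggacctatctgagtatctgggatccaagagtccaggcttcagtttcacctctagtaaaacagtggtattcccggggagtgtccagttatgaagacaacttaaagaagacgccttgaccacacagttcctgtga
Cpa3: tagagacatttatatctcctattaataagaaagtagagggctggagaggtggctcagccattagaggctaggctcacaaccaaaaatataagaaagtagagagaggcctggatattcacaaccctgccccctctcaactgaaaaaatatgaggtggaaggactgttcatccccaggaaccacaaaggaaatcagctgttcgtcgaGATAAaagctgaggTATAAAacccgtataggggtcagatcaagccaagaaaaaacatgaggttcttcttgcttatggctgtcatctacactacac
Hdc: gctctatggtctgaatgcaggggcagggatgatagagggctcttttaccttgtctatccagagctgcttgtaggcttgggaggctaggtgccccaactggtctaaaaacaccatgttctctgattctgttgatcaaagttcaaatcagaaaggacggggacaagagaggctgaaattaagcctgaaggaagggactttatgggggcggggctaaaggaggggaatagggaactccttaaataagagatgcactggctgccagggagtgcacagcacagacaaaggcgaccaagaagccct
The GATA core was found in 5 of the 6 windows, all but that of Hdc, against 25.4% of 32851 mouse promoter windows of the same length. In Mcpt4 and Cpa3 it starts 102 and 45 bases before the start, and in Cma1 194 bases before it, on the other strand. The TATA box was found in 3 of the 6, those of Mcpt4, Cpa3 and Fcer1a, against 8.3% of all windows. These matches describe letters only, and no binding was measured.

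In tumor cells at week 2 the granule protease genes were readily seen. At week 3 they were much lower, and at week 4 they were close to absent. Levels are in TPM, a unit that divides reads by gene length and brings every library to the same total, so that genes can be compared with each other. Mcpt4, the chymase gene with the highest level, had 21.0, 16.3 and 26.0 TPM in the 3 libraries of week 2, 0.406, 0.301, 2.81 and 3.79 in the 4 of week 3, and 0.350, 0, 0.580 and 0.523 in the 4 of week 4. The lowest week 2 library stood far above the highest of either later week, while weeks 3 and 4 overlapped. On the log2(TPM + 1) scale the difference was -3.18 for week 3 minus week 2 (SE 0.43) and -4.02 for week 4 minus week 2 (SE 0.43), and both share the week 2 libraries. Read numbers recovered from the TPM steps were 281, 230 and 407 at week 2 and at most 32 in any later library.

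Cma1, the other chymase gene, had 9.29, 9.92 and 12.3 TPM at week 2, 0.738, 0, 0.947 and 1.83 at week 3, and 0.159, 0.162, 0.176 and 0 at week 4. Cpa3 had 7.03, 8.20 and 17.9 TPM at week 2, 0.204, 0.201, 2.09 and 1.03 at week 3, and 0.643, 0.119, 0.0647 and 0 at week 4. Again every week 2 library was above every later one. The log2 differences were -2.70 (SE 0.29) and -3.35 (SE 0.29) for Cma1 and -2.69 (SE 0.38) and -3.24 (SE 0.38) for Cpa3, for weeks 3 and 4 minus week 2 in that order. The mean of Cma1 over the week 4 libraries was 0.0118 of its week 2 mean, from at most 2 reads per library.

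The tryptase genes did the same at lower levels. Tpsb2 had 5.57, 6.14 and 10.9 TPM at week 2, 0.435, 0.687, 1.07 and 0.507 at week 3, and 0.300, 0.306, 0 and 0 at week 4. Tpsab1 had 5.68, 2.83 and 7.70 TPM at week 2, 0.276, 0.454, 1.23 and 1.71 at week 3, and 0.317, 0, 0 and 0 at week 4. Week 2 did not overlap with either later week for both genes, and Tpsb2 was also lower in each week 4 library than in each week 3 library. The log2 differences from week 2 were -2.31 (SE 0.24) at week 3 and -2.85 (SE 0.24) at week 4 for Tpsb2, and -1.73 (SE 0.32) and -2.50 (SE 0.32) for Tpsab1. The 2 tryptase genes are diverged paralogs: the best local alignment of their GENCODE M21 transcripts had 76.9% identical bases over 822 aligned ones, with no identical run above 39 bases, and none of their windows of 50 bases were shared.

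The genes of the IgE receptor chains were scarce throughout. Ms4a2 had 0.256, 0.559 and 0.723 TPM at week 2, from 10, 23 and 33 reads; later it was above 0 in 1 library of week 3, at 0.214, and 1 of week 4, at 0.0599. Fcer1a had 0.287, 0 and 1.23 TPM at week 2, from 2, 0 and 10 reads, and was listed at 0 in all 8 later libraries. Both stayed under the filter used for tests, which asks for 3 libraries of a table with 1 TPM or more, and at this depth a low level cannot be told from 0. Hdc kept more of its level: it had 8.64, 5.30 and 6.69 TPM at week 2, 3.83, 3.67, 2.45 and 5.88 at week 3, and 2.94, 4.96, 2.17 and 2.74 at week 4. Week 3 overlapped with week 2, and week 4 lay below it with 4.96 against a lowest week 2 value of 5.30. The log2 differences of Hdc from week 2 were -0.69 (SE 0.27) and -0.93 (SE 0.27), at 60 to 310 reads per library.

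**Figure D1:**
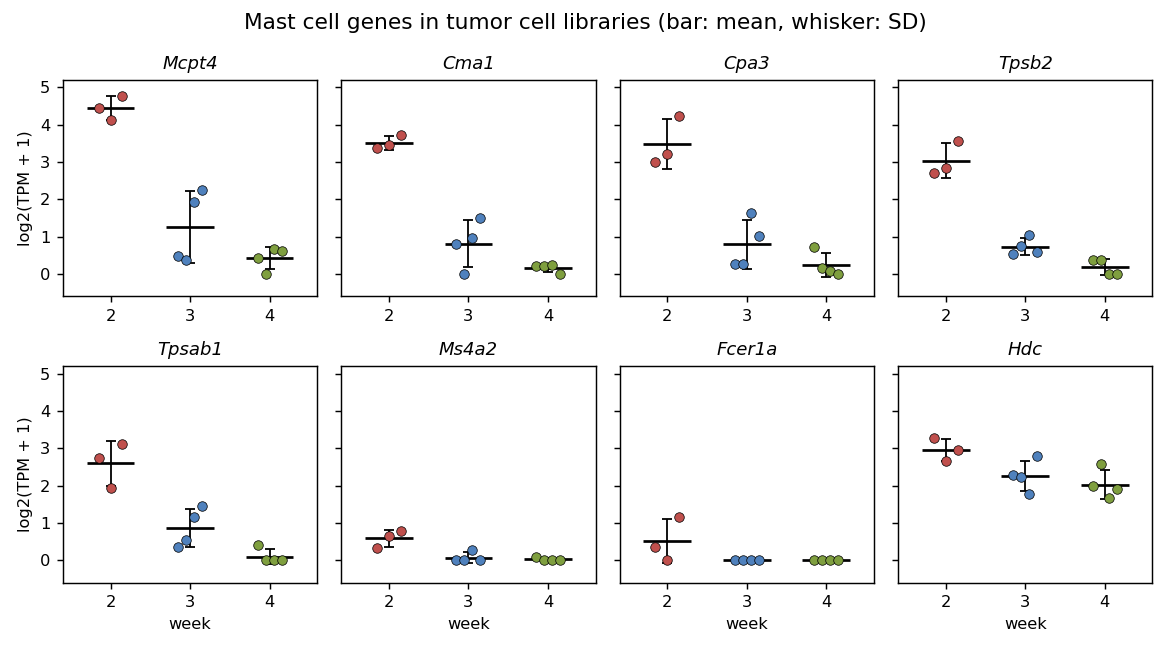
Each panel plots 1 gene in tumor cell libraries, with week on the x axis and log2(TPM + 1) on the y axis; points are libraries (3, 4 and 4), bars means and whiskers SD. The 5 protease genes stand high at week 2 only, with mean TPM of 5.4 to 21.1, and Hdc keeps a mean of 3.20 TPM at week 4.

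Counted over the 8 genes, 6 lay lower in every week 3 library than in every week 2 library, beside 5.64% of the 14770 genes that passed the filter. Between weeks 4 and 2 the count was 7 (17.3% of all), and between weeks 4 and 3 it was 1, Tpsb2 (15.9%). Nothing is read from these counts, since the genes were chosen on this contrast. The mean of log2(TPM + 1) over the 8 genes was 2.64 ± 0.35 at week 2, 0.85 ± 0.35 at week 3 and 0.40 ± 0.10 at week 4 (SD). Its difference was -1.79 between weeks 3 and 2 and -2.24 between weeks 4 and 2, with pooled SDs between libraries of 0.35 and 0.24. The last step was smaller, at -0.45 for week 4 minus week 3, with a pooled SD of 0.25. The median difference of the 8 genes was -2.02, -2.67 and -0.55 for these contrasts, while all tested genes had medians of 0.14, 0.11 and -0.02. In bulk samples, fewer mast cells in the tumor, fewer carried into the samples and less of these RNAs per cell cannot be told apart.

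Within a week most of the genes, but not Hdc, also varied together. They were picked in these same libraries and as markers of the same cell type, so this is no separate support. Among the 3 libraries of week 2, replicate 3 was the highest for 7 of the 8 genes, and for Hdc it was replicate 1. At week 3, replicates 3 and 4 held 8.37 and 8.86 TPM summed over the 7 genes without Hdc, and replicates 1 and 2 held 2.06 and 1.64. After subtracting group means from log2(TPM + 1), the r of a gene with the mean of the other 7 was 0.68 for Mcpt4, 0.67 for Cma1, 0.81 for Cpa3, 0.55 for Tpsb2 and 0.89 for Tpsab1 over 11 libraries. It was 0.47 for Ms4a2 and 0.54 for Fcer1a, and 0.02 for Hdc. Ms4a2 was at 0 in 6 and Fcer1a in 9 of the 11 libraries, so their r values rest on few reads. The points share library, depth and the other cells in a sample, and these r values are descriptions.

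Tumor cell libraries also held RNA of other cell types, and part of it changed over the same weeks. Summed TPM of 5 genes carried by most leukocytes, such as Ptprc, was 606.8, 137.3 and 271.9 at week 2, 126.0, 97.6, 229.8 and 247.4 at week 3, and 167.9, 163.5, 31.7 and 66.7 at week 4. Its highest library was week 2 replicate 1, not replicate 3, and weeks 2 and 3 overlapped. Per 100 TPM of these 5 genes, the mast cell genes without Hdc took 8.09, 32.0 and 28.2 TPM at week 2, 1.63, 1.68, 3.64 and 3.58 at week 3, and 1.09, 0.359, 2.59 and 0.785 at week 4. The ratio at week 2 therefore stayed above that of every later library, with replicate 1 nearest to them. Between weeks 3 and 2, 0 of 5 leukocyte, 0 of 8 T cell, 0 of 7 B and plasma cell, 0 of 10 macrophage and monocyte and 0 of 8 endothelial genes passed the threshold, in a contrast where 24.1% of all genes did. Their levels still leaned lower: the median log2 differences were -0.79 for leukocyte, -0.96 for T cell, -1.44 for B and plasma cell and -0.48 for macrophage and monocyte genes, and 0.35 for endothelial genes, against 0.14 for all tested genes, and 2 of the 7 B and plasma cell genes were lower without overlap. Between weeks 4 and 2, 46.3% of all genes passed and 17.1% fell. In these lists, in the same order, 3, 7, 6, 2 and 6 genes fell and 0 rose. The medians were -1.67, -2.31, -3.02, -1.12 and -1.50. Of 7 epithelial genes 5 rose and 1 fell in both contrasts, with sums of 1044 to 1382 TPM at week 2, 1481 to 1978 at week 3 and 1773 to 2163 at week 4. Among 7 neutrophil genes, of which 3 passed the filter, 2 rose and 0 fell in both contrasts. Their sums were 23.8 to 68.1 TPM at week 2, 70.9 to 83.9 at week 3 and 135.4 to 223.0 at week 4. Fibroblast genes ran from 1211 to 7472 TPM over the 11 libraries, and 2 of 10 fell between weeks 3 and 2. The part of these cells in the mast cell result was not tested.

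**Figure D2:**
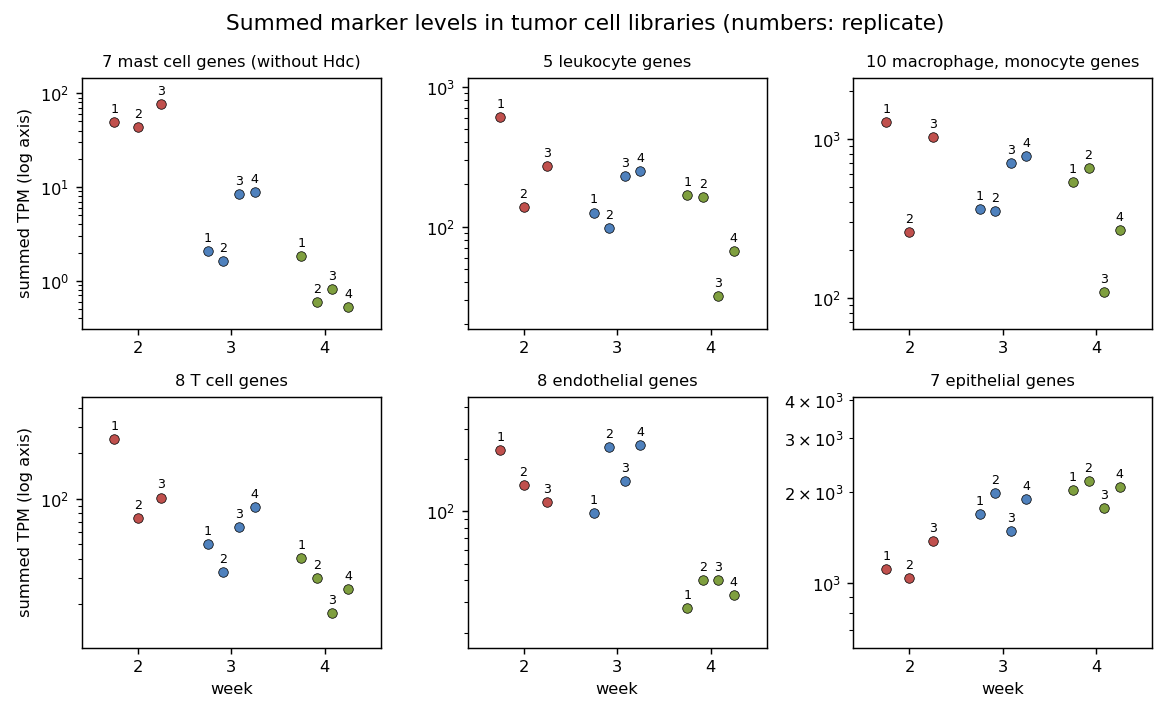
Each panel plots the summed TPM of 1 marker list in tumor cell libraries on a log axis against week; points are libraries and the small numbers their replicate. The 7 mast cell genes (without Hdc) lie at 44.0 to 76.7 TPM at week 2 and at 8.86 or less later, while leukocyte, macrophage and T cell genes overlap between weeks 2 and 3 and endothelial genes are lowest at week 4.

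Other genes of mast cell biology, taken from lists that were chosen with earlier results of these data known, went in both directions. Among 15 further granule and mediator genes, of which 10 passed the filter, 1 rose and 5 fell between weeks 4 and 2, where 17.1% of all genes fell, and 6 were lower without overlap. The median log2 difference of these 15 genes was -0.27, against 0.11 for all tested genes. Those that fell were Vwa5a (37.3 ± 1.51 against 83.3 ± 6.97 TPM, log2 -1.14, adjusted p = 9.48e-06), Ltc4s, which makes leukotriene C4 (4.44 ± 2.56 against 20.4 ± 5.44 TPM, log2 -2.05), Ptgs1, a prostaglandin synthase (log2 -1.34), Rab27b, which guides granule release (log2 -0.63), and, named after its value was seen, the monoamine transporter gene Slc18a2 (log2 -0.44). Ndst2, needed to sulfate granule heparin, rose (16.1 ± 0.219 against 10.5 ± 3.13 TPM, log2 0.61). Srgn, the granule proteoglycan core, was at 29.9 ± 14.0 at week 4 and 69.1 ± 31.8 TPM at week 2 and did not pass (adjusted p = 0.0543), nor did Hpgds (log2 -0.87) and Alox5ap (log2 0.18).

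Of 12 receptor genes, of which 5 passed the filter, 1 rose and 1 fell between weeks 4 and 2. Without overlap, 5 of the 12 were lower and 1 was higher, where 17.3% of all genes were lower. Their median log2 difference was -0.26, against 0.11 for all tested genes. Kit, which luminal mammary cells express too, rose to 94.8 ± 12.6 TPM at week 4, against 17.5 ± 6.18 at week 2, and was at 41.8 ± 5.68 at week 3, while the proteases were lower. Il1rl1, the interleukin 33 receptor of mast cells and other cells, fell to 92.0 ± 41.0 TPM at week 3 and 1.73 ± 1.04 at week 4, against 344.0 ± 166 at week 2. Its level at week 2 was many times that of any protease gene. Fcer1g, the gamma chain that the IgE receptor shares with other Fc receptors of myeloid cells, was at 25.3 ± 17.8 TPM at week 4 and 52.6 ± 27.2 at week 2 and did not pass. Mrgprb2, a receptor known from connective tissue mast cells, was at 0.671 TPM or less in every tumor cell library of the time course.

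Of 8 transcription factor genes 0 passed between weeks 3 and 2 and 1 fell between weeks 4 and 2, Tal1, which ended at 0.159 TPM against 0.940 (log2 -0.74) and was named after its value was seen. Mitf was at 4.37 ± 1.26 TPM at week 4 and 6.38 ± 1.81 at week 2, and Gata2, Spi1, Stat5a, Stat5b and Bhlhe40 also did not pass. Of 9 signalling genes, Syk (log2 -1.12), Lat (log2 -1.92) and Btk (log2 -1.37) fell between weeks 4 and 2 and Plcg1 (log2 1.29) and Plcg2 (log2 1.24) rose, whereas Lyn, Fyn, Lat2 and Inpp5d did not pass, with a median of -0.94 over the 9; all of these serve other cells as well. Of the ligands, Kitl, which encodes stem cell factor, was at 64.1 ± 3.64 TPM at week 4 against 98.1 ± 24.2 at week 2 and fell (log2 -0.58, adjusted p = 0.0199). Il33 fell to 59.1 ± 14.9 TPM against 178.0 ± 7.99 (log2 -1.61). Tslp rose to 24.4 ± 6.31 TPM against 11.9 ± 1.84 (log2 0.95).

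Genes outside the 8 whose pattern over the 11 tumor cell libraries was most like theirs were sought among 14770 genes, by the r of log2(TPM + 1) with the mean z-score of the 6 that passed the filter. They were Tmsb4x (r = 0.98), Siglech (0.96), Crem (0.95), Dek, Ccl1, Birc2 and Srsf7 (0.95 each), Impact, Pycard and Gm26799 (0.94 each), and 45 genes reached 0.9. Tmsb4x, a thymosin, had means of 3321, 2093 and 1643 TPM at weeks 2, 3 and 4. Siglech, known as a marker of plasmacytoid dendritic cells, had 2.82, 0.657 and 0.292 TPM, and the chemokine gene Ccl1 had 3.32, 0.901 and 0.346. Of the genes of the other lists, Vwa5a came nearest, with r = 0.89 and rank 73. Gata2 had r = 0.087 and rank 5682. The libraries share the weeks, so a fall over time alone gives a high r, and these values are descriptions.

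In CD8 T cells of the time course, 5376 to 5833 TPM at week 2, 4877 to 5682 at week 3 and 5467 to 6058 at week 4 came from 8 T cell genes and the mast cell genes were low. Mcpt4 had 0.764, 13.7 and 7.54 TPM at week 2, 0.233, 1.67 and 2.76 at week 3, and 0.128, 0 and 0 at week 4. Week 2 replicate 1 was low and week 3 overlapped with week 2, while all week 4 libraries were below all week 2 libraries. Mcpt4 fell between weeks 4 and 2 (log2 -2.54, SE 0.70, limma adjusted p = 0.0369). Cpa3 had 0.83, 6.89 and 5.36 TPM at week 2, 1.25, 0.963 and 0.971 at week 3, and 0.342, 0.142 and 0.324 at week 4, again with no overlap between weeks 4 and 2. It fell between these weeks as well (log2 -1.83, SE 0.47, limma adjusted p = 0.0284).

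Cma1 had 0, 8.13 and 2.89 TPM at week 2, 1.27, 3.03 and 2.24 at week 3, and 0.233, 0 and 0 at week 4, and weeks 4 and 2 overlapped through week 2 replicate 1. Tpsb2 had 0.409, 5.95 and 3.56 TPM at week 2, 0.200, 0.715 and 1.49 at week 3, and 0, 0.545 and 0 at week 4. Neither passed between weeks 4 and 2, with log2 differences of -1.62 for both (limma adjusted p = 0.113 and 0.0678). Tpsab1 ran from 0 to 2.85 TPM over the 9 libraries, with 2.05 in week 4 replicate 3, and was at log2 -0.44 between weeks 4 and 2 (SE 0.54, limma adjusted p = 0.588). Hdc overlapped between all weeks: it had 1.78, 4.81 and 2.71 TPM at week 2, 2.49, 2.97 and 3.09 at week 3, and 4.88, 2.72 and 4.41 at week 4 (log2 0.33 for week 4 minus week 2, SE 0.29, limma adjusted p = 0.444). Ms4a2 was at 0.294 TPM or less, and Fcer1a was above 0 in 2 of 9 libraries; both missed the filter.

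Among the other lists, granule and mediator genes rose in 2 of 15 and fell in 0 between weeks 4 and 2 in CD8 T cells, and receptor genes rose in 3 of 12 (Fcer1g, Adora3 and Ptger3, the last 2 named after their values were seen) and fell in 0, beside calls in 17.5% of all genes in either direction. Fcer1g rose to 232.5 ± 93.7 TPM at week 4, against 36.4 ± 34.5 at week 2 (log2 3.00), and Vwa5a to 33.4 ± 7.90, against 20.9 ± 1.71 (log2 0.63). In all, 2 of the 8 genes fell between weeks 4 and 2 in CD8 T cells, beside 7.18% of 13350 tested genes, and these 2 were also the ones without overlap (16.5% of all genes). The calls rested on few libraries: without week 2 replicate 2 the limma adjusted p was 0.116 for Mcpt4 and 0.0975 for Cpa3, and without week 2 replicate 1, the low one, 0.0095 and 0.00453, which are the ends of the range over all alternatives. For Mcpt4 and Cpa3 it was also above the threshold without week 2 replicate 3 (0.0717 and 0.0598), without week 4 replicate 2 (0.0921 and 0.0738), without week 4 replicate 3 (0.0906 and 0.0794), with no filter (0.0788 and 0.059) and in a fit of weeks 2 and 4 alone (0.0631 and 0.0674), and for Mcpt4 without week 4 replicate 4 (0.0641). Between weeks 3 and 2 limma called 0 of the 8, beside 0.0449% of all genes (6 genes, against 869 with array weights and 0 with the replicate block), with 1 at an unadjusted p under 0.05, Cpa3 (log2 -1.13), and 0 of 8 lay lower without overlap (5.21% of all). Between weeks 4 and 3 it called 0, beside 2.67%, with 1 at an unadjusted p under 0.05, Cma1 (log2 -1.53), and 3 genes had no overlap (22.4% of all genes). Weeks 3 and 4 are set against the same week 2 libraries. Cells of other types were in these libraries too: B and plasma cell genes summed to 18.0, 138.7 and 72.5 TPM at week 2, 19.8, 169.3 and 115.5 at week 3, and 17.3, 7.75 and 18.2 at week 4. They were lowest at week 2 in replicate 1, as were the mast cell genes, which without Hdc summed to 2.09, 37.8 and 21.4 TPM there. The 5 leukocyte genes stayed within 4694 to 5635 TPM in all 9 libraries. Of these 7 B and plasma cell genes 0 passed between weeks 4 and 2, with a median of -1.998. Endothelial genes summed to 105.0, 134.5 and 105.6 TPM at week 2, 79.2, 109.3 and 84.8 at week 3, and 30.1, 39.9 and 71.4 at week 4, and between weeks 4 and 2, 2 of 8 fell and 4 were lower without overlap. Of 10 fibroblast genes 1 rose, 0 fell and 6 were lower without overlap (median log2 -1.68), while their sums overlapped, at 782.3 to 1217 TPM at week 4 and 637.5 to 1215 at week 2. The part of these cells in the result was not tested. Within weeks, the r of a gene with the mean of the other 7 over 9 libraries was 0.96 for Mcpt4, 0.95 for Cma1, 0.86 for Cpa3, 0.95 for Tpsb2, 0.69 for Tpsab1, 0.91 for Ms4a2, 0.18 for Fcer1a and 0.71 for Hdc.

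**Figure D3:**
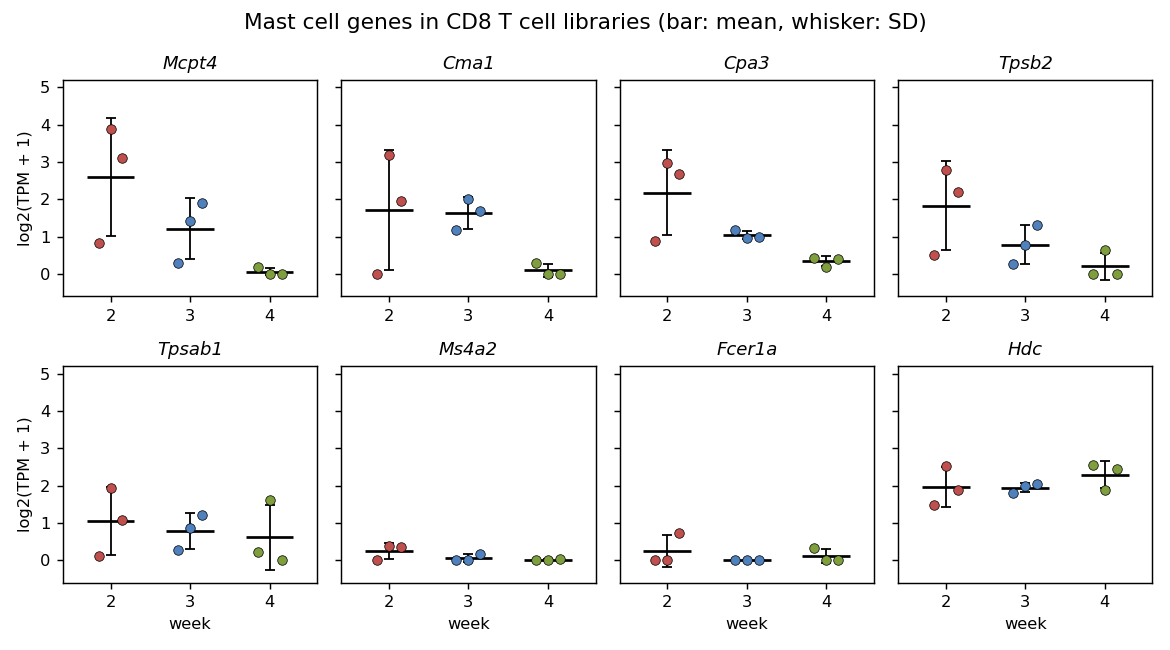
Each panel plots 1 gene in CD8 T cell libraries, with week on the x axis and log2(TPM + 1) on the y axis; points are the 3 libraries of a week, bars means and whiskers SD. Week 2 is spread widely, with Mcpt4 at 0.764 TPM in replicate 1 and 13.7 in replicate 2, and Hdc has its highest value, 4.88 TPM, at week 4.

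In the knockdown set Mogat1 itself went against the label in tumor cells. It had 0.624, 0.146 and 0.531 TPM in the 3 libraries labelled shMogat1, from 12, 2 and 10 reads, and was listed at 0 in all 3 labelled shCTRL. In CD8 T cells it had 0.515, 0.577 and 0.208 TPM in the libraries labelled shMogat1 and 0.208, 0.286 and 0.211 in those labelled shCTRL. Directions between these arms are therefore directions between labels. Libraries of an arm differed little, with a median variance of 2.30 to 3.43 times counting noise in this set and 6.63 to 29.2 times in the time course.

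The knockdown tumor cells held few mast cell transcripts, a sum of 3.90, 4.51 and 4.35 TPM over the 8 genes in the libraries labelled shMogat1 and 1.59, 1.52 and 2.63 in those labelled shCTRL. Mcpt4 had 1.51, 1.22 and 1.03 TPM in the libraries labelled shMogat1, against 0.136, 0.667 and 0.300 in those labelled shCTRL, with no overlap. The log2 difference was 0.73 (SE 0.18). Mcpt4 was the only member past the filter, and it reached 1 TPM in the libraries labelled shMogat1 alone, so it could pass only by being higher there, and its limma adjusted p of 0.00845 is no support by itself. With no filter, limma gave adjusted p = 0.0134 for Mcpt4, 0.0229 for Cpa3 and 0.0406 for Hdc, and 0.282 to 0.71 for the other 4 genes that were above 0. Cpa3 had 0.530, 0.677 and 0.738 TPM under shMogat1 and 0.227, 0.111 and 0.401 under shCTRL, and Hdc 0.754, 1.29 and 1.18 under shMogat1 and 0.610, 0.436 and 0.588 under shCTRL. These 2 genes and Mcpt4 had no overlap between arms, so 3 of 8 were higher throughout. Of the 12936 genes that passed the filter, 39.7% were higher without overlap. That set holds Mcpt4 alone of the 8, so the shares cover unlike genes, and nothing is read from this count.

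Cma1 had 0.262, 0 and 0.803 TPM in tumor cells labelled shMogat1 and 0, 0 and 0.136 in those labelled shCTRL. Tpsb2, at 0.124 to 0.347 TPM under shMogat1 and 0 to 0.257 under shCTRL, and Tpsab1, at 0.467 to 0.917 TPM under shMogat1 and 0.302 to 0.950 under shCTRL, overlapped. Ms4a2 was above 0 in 1 library and Fcer1a in none of the 6. The leukocyte genes moved the same way as Mcpt4: they summed to 74.9, 71.6 and 77.2 TPM under shMogat1 and 32.6, 32.6 and 33.9 under shCTRL, and 5 of 5 rose, with 10 of 10 macrophage and monocyte and 6 of 8 T cell genes, where 34.6% of 12936 tested genes rose. Per 100 TPM of the leukocyte genes, the mast cell genes without Hdc took 4.21, 4.51 and 4.10 TPM under shMogat1 and 3.00, 3.31 and 6.02 under shCTRL, and the arms overlapped. Of 7 epithelial genes 6 rose, with sums of 938.6 to 981.1 TPM against 201.8 to 217.1. The part of these cells in the result was not tested.

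Genes that sustain or activate mast cells also differed between the tumor cell arms. Kit had 6.48 ± 0.158 TPM under shMogat1 and 0.0934 ± 0.114 under shCTRL (log2 2.78, limma adjusted p = 4.98e-07). Its ligand gene Kitl ran the other way, at 24.3 ± 1.29 TPM under shMogat1 and 69.9 ± 1.46 under shCTRL (log2 -1.49), as did Il1rl1, at 405.1 ± 6.61 and 858.0 ± 16.6 TPM (log2 -1.08), and Tslp (log2 -1.11). Il33 rose (429.5 ± 9.56 against 337.8 ± 5.72 TPM, log2 0.35). Srgn (log2 1.14), Fcer1g (log2 1.10) and Spi1 (log2 1.17) rose, all genes of myeloid cells at large. Among the 15 further granule and mediator genes 5 rose and 0 fell, and among the 12 receptor genes 3 rose and 1 fell, where 54.5% of all genes passed in either direction.

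In CD8 T cells from the knockdown xenografts the granule protease genes that passed the test were lower under shMogat1, and the tryptase genes had the largest log2 differences of the 8. Tpsab1 had 2.10, 1.18 and 2.44 TPM in the libraries labelled shMogat1, against 14.9, 13.3 and 16.6 in those labelled shCTRL. Tpsb2 had 1.15, 0.858 and 0.658 TPM under shMogat1 and 4.34, 5.28 and 3.70 under shCTRL. Both had a wide gap between arms and fell (log2 -2.48, SE 0.17, limma adjusted p = 2.61e-05 for Tpsab1; log2 -1.52, SE 0.15, 0.000174 for Tpsb2). The ratio of Tpsab1 to Tpsb2 was 1.37 to 3.70 under shMogat1 and 2.52 to 4.50 under shCTRL. In tumor cells it was 0.460 to 1.02 at week 2, 0.634 to 3.38 at week 3 and 0 to 1.06 at week 4. CD8 T cells of the time course had 0.211 to 0.479 at week 2, 0.881 to 1.15 at week 3 and 3.76 at week 4. Knockdown tumor cells had 2.64 to 5.81 under shMogat1 and 3.70 to 9.51 under shCTRL. Libraries with Tpsb2 at 0 are left out, and many of these ratios rest on few reads.

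Mcpt4 had 3.57, 3.40 and 3.65 TPM in CD8 T cells labelled shMogat1, against 5.06, 7.26 and 4.69 in those labelled shCTRL. Cpa3 had 1.91, 2.41 and 1.41 TPM under shMogat1 and 4.69, 2.72 and 3.18 under shCTRL. Neither overlapped between arms, and both fell by less than the tryptase genes (log2 -0.53, SE 0.14, limma adjusted p = 0.0192 for Mcpt4; log2 -0.63, SE 0.19, 0.0309 for Cpa3). Both calls ended under quantile normalization (0.0709 and 0.0892), with no filter (0.0515 and 0.0725) and without shMogat1 replicate 1 (0.051 and 0.0734). That of Mcpt4 also ended without shMogat1 replicate 2 (0.0558), and that of Cpa3 without shMogat1 replicate 3, shCTRL replicate 1 or shCTRL replicate 4 (0.0959, 0.0789 and 0.0562), in ranges of 0.016 to 0.0709 for Mcpt4 and 0.0158 to 0.0959 for Cpa3. Cma1 had 3.08, 1.27 and 1.74 TPM under shMogat1 and 4.20, 2.71 and 2.99 under shCTRL, with overlap, and did not pass (log2 -0.53, limma adjusted p = 0.097). It passed without shMogat1 replicate 1 (0.0199, in a range up to 0.263).

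Hdc did not pass, with 4.57, 2.95 and 3.55 TPM in CD8 T cells labelled shMogat1 and 3.62, 3.60 and 3.09 in those labelled shCTRL (log2 0.07, SE 0.14, limma adjusted p = 0.721). Fcer1a was listed at 0 in all 3 libraries labelled shMogat1 and had 1, 1 and 2 reads in those labelled shCTRL, and Ms4a2 overlapped at 0.351 TPM or less. In all, 4 of the 8 genes fell, beside 26.2% of 13742 tested genes, 0 rose, and 5 lay lower without overlap, beside 32.8% of all genes. The median difference of the 8 was -0.53, and that of all tested genes -0.05. The genes did not all vary together within arms. Over the 6 libraries of a cell type, the r of a gene with the mean of the other 7 was -0.23 for Mcpt4, 0.81 for Cma1, -0.27 for Cpa3, 0.34 for Tpsb2, 0.016 for Tpsab1, -0.31 for Ms4a2, -0.35 for Fcer1a and 0.91 for Hdc in CD8 T cells. In tumor cells it was -0.65 for Mcpt4, -0.34 for Cma1, 0.87 for Cpa3, 0.68 for Tpsb2, 0.30 for Tpsab1, 0.14 for Ms4a2 and 0.255 for Hdc. Summed over the 8 genes, levels in CD8 T cells were 16.5, 12.2 and 13.4 TPM under shMogat1 and 37.0, 35.2 and 34.9 under shCTRL.

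**Figure D4:**
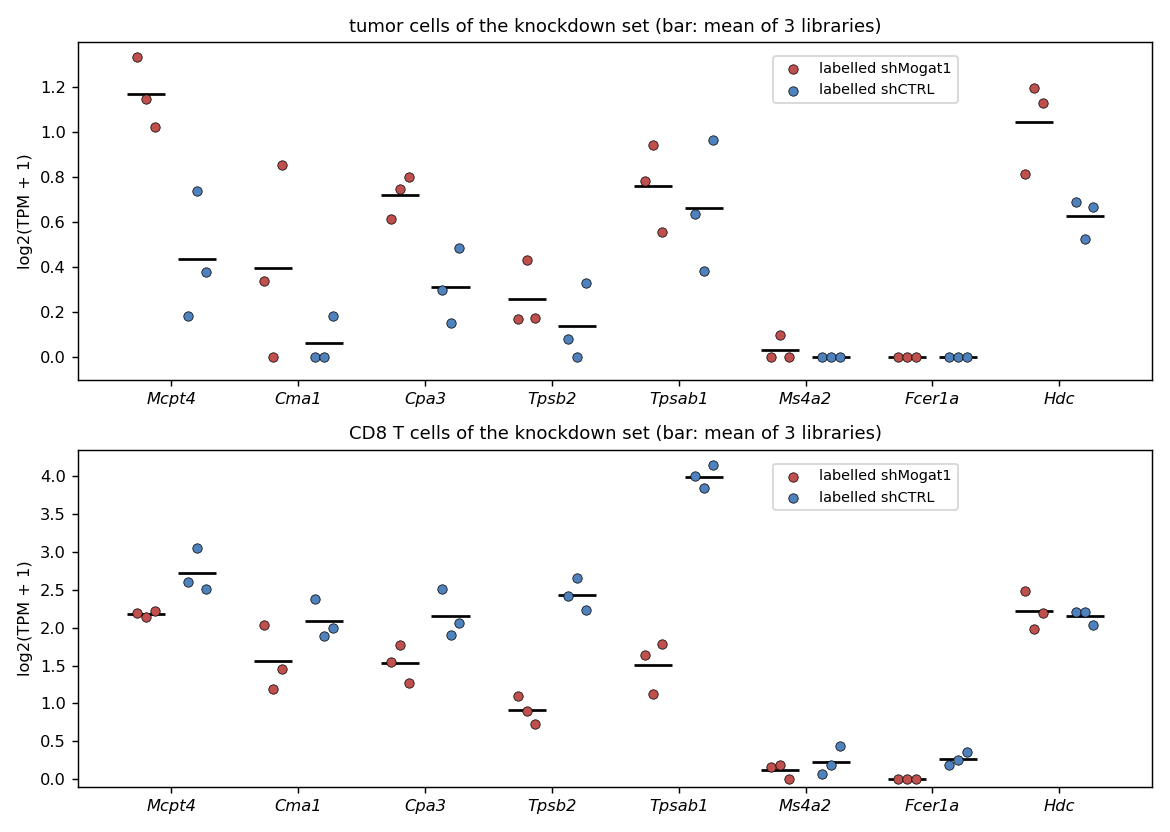
Log2(TPM + 1) of the 8 genes (x axis) in tumor cells (top) and CD8 T cells (bottom) of the knockdown set; each point is 1 of 3 libraries labelled shMogat1 (left of each pair) or shCTRL (right), and bars are means. The y axes differ: Mcpt4 is higher under shMogat1 in tumor cells, where all levels are at 1.51 TPM or less, and Tpsb2 and Tpsab1 are lower under shMogat1 in CD8 T cells.

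T cell genes summed to 4543 to 4558 TPM in CD8 T cells labelled shMogat1 and 4348 to 4532 in those labelled shCTRL, and leukocyte genes to 4275 to 4335 and 3898 to 4072, so the mast cell genes without Hdc took 0.276, 0.217 and 0.228 TPM per 100 TPM of leukocyte genes under shMogat1 and 0.857, 0.789 and 0.782 under shCTRL. Fibroblast genes moved the same way as the proteases, at 1510 to 1567 TPM under shMogat1 and 2532 to 2646 under shCTRL, with 7 of 10 lower. Of epithelial genes 5 of 7 rose, with sums of 218.3 to 220.6 against 93.3 to 99.7 TPM. The part of these cells in the result was not tested. Il1rl1 fell as well, to 44.8 ± 0.546 against 144.6 ± 11 TPM (log2 -1.67, limma adjusted p = 7.21e-07), as did Kitl (6.65 ± 0.354 against 13.4 ± 0.724 TPM, log2 -0.91), Il33 (log2 -0.60) and Tslp (log2 -1.47). Kit rose (7.59 ± 0.282 against 4.27 ± 1.01 TPM, log2 0.72). Calls in either direction covered 42.8% of all genes. Of 15 further granule and mediator genes 7 fell, among them Ptgs1 (log2 -0.69), Vwa5a (log2 -0.42), Rab27b (log2 -0.45) and Hpgds (log2 -0.25), and 1 rose, Srgn (375.3 ± 4.10 against 274.0 ± 6.29 TPM, log2 0.45).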

How the data were processed

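RNA-seq libraries of CD8 T cells and tumor cells of the mouse were used as 4 tables of TPM values deposited by the authors, 1 per cell type and experiment. FastQC, Trim Galore, HISAT2 and the mm10 build are named in the submitters' processing notes; the read counter and gene lengths are not given in the sources used here. Libraries used a stranded mRNA kit, per the labels' protocols. Each table had 33681 rows, of which 27 held dates in place of symbols and were left out (at most 0.184% of the TPM of a library). Between 11829 and 14184 genes reached 1 TPM per library. Read numbers were recovered from TPM steps: 99.1% of 1156 low genes checked lay on whole steps within 0.02 of a read. They describe depth only and cover counting error only.

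Tests were run with limma 3.58.1 in R 4.3.3 (eBayes with trend) on log2(TPM + 1), which understates changes of low genes, for genes at 1 TPM or more in at least 3 libraries of a table. Each table was fitted once with all its groups. Benjamini-Hochberg adjustment ran over all tested genes, with 0.05 as the threshold; the test was checked on simulated data. "Rose" and "fell" are used only past it. Shares of all genes, also those without overlap, are over the genes of a table that passed the filter. Medians of all genes stood at 0.14 and 0.11 in tumor cells for weeks 3 and 4 against week 2, 0.10 in CD8 T cells for week 3 against week 2 and -0.13 for week 4 against week 3. Tables were scaled separately, so tests stayed within a table. The members, the other lists and the rules were chosen with earlier results of these data known. Named from the other mast cell lists are genes with a mean of 5 TPM or more in a tumor time course group. Mrgprb2, Tal1, Slc18a2, Adora3 and Ptger3 lie outside this rule and were added after their values were seen. Gata2 was named after its result was seen. Alternatives were a pseudocount of 0.1, no filter, median-of-ratios and quantile scaling, array weights, a replicate block, fits of the 2 groups alone and leaving out each library. Transcripts of the tryptase genes were aligned locally with Biopython 1.88 (match 2, mismatch -3, gap opening -7, gap extension -2). Python 3.11.15, numpy 2.4.6, pandas 2.3.3 and matplotlib 3.10.9 served for tables and plots.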

Additional observations from a re-analysis of the deposited data

Results flagged for a closer look

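In tumor cells at weeks 3 and 4, 1 library stood apart from the other 3 for 4 of the 14 pairs of gene and group with 4 libraries and not all at 0. Chance gives about 1 in 20 for measured values. That rate does not hold for these 4. In 3 the other libraries are at 0, and for Cma1 they stand at the same 2 reads. Ms4a2 was at 0.214 TPM in week 3 replicate 3 and at 0.0599 TPM in week 4 replicate 1, and Tpsab1 at 0.317 TPM in week 4 replicate 1, from 6, 2 and 4 reads, each with 0 in the other 3 libraries of its group. Cma1 was at 0 in week 4 replicate 4, against 0.159 to 0.176 TPM, from 2 reads each, in the other 3.

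Between libraries labelled shMogat1 and shCTRL, 2 genes differed in opposite directions in the 2 cell types, with no overlap between arms in either. The log2 difference of Mcpt4 was 0.73 in tumor cells and -0.53 in CD8 T cells, and that of Cpa3 was 0.41 in tumor cells and -0.63 in CD8 T cells. In tumor cells Cpa3 lay under the filter, and Mcpt4 passed it only through the libraries labelled shMogat1. There 39.7% of all genes were higher without overlap. The leukocyte genes were also higher under shMogat1 there, and relative to them the mast cell genes without Hdc overlapped between arms. In CD8 T cells 32.8% of all genes were lower without overlap. The difference between cell types was not tested, and the tables were scaled separately.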

How the results depend on the processing

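With a pseudocount of 0.1 the mean difference of the 8 genes in tumor cells was -2.84 for week 3 minus week 2, -4.08 for week 4 minus week 2 and -1.24 for week 4 minus week 3, since lower values count for more; the other alternatives kept it within 1 SD. The number of the 8 genes past the threshold moved as follows. In knockdown tumor cells it was 3 with no filter, against 1. In CD8 T cells of weeks 4 and 2 it was 0 with no filter, 0 in a fit of these weeks alone and 4 with the replicate block, against 2; leaving out 1 library each gave 0 to 4. In weeks 3 and 2 leaving out 1 library gave 0 to 1, where Cpa3 passed without week 2 replicate 1 (adjusted p = 0.046, range up to 0.692), and in weeks 4 and 3 a fit of these weeks alone gave 1, Cma1, against 0. In knockdown CD8 T cells, against 4, quantile normalization gave 2, no filter gave 3 (Tpsab1, Tpsb2 and Fcer1a) and leaving out 1 library gave 3 to 4. Over all genes of CD8 T cells, calls in weeks 3 and 2 numbered 6, against 869 with array weights, 0 with the block and 5 to 10 without 1 library. In weeks 4 and 2 they numbered 2335, against 5910 with array weights, 1422 with the block, 1333 in a fit of these weeks alone and 926 to 3097 without 1 library. In weeks 4 and 3 they numbered 356, against 3661 with array weights, 3 with the block, 234 with no filter, 584 under quantile normalization and 46 to 676 without 1 library.

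Of single genes under single alternatives, 269 kept direction and call, 23 lost the call, 8 gained it and 18 turned sign, none of them called. In CD8 T cells of weeks 3 and 2, Cma1 turned to 0.68 with a pseudocount of 0.1, 0.41 with array weights and 0.26 with the replicate block, and Hdc to 0.0673 with array weights and 0.0915 with the replicate block. Leaving out 1 library, Cma1 ran from -0.94 to 0.65, Hdc from -0.27 to 0.26 and Tpsab1 from -0.73 to 0.18 there. Tpsab1 turned to 0.58 with array weights for weeks 4 and 2 (-0.94 to 0.0084 without 1 library) and to 0.67 for weeks 4 and 3 (-0.67 to 0.13 without 1 library). Hdc turned to -0.0625 without shMogat1 replicate 1 in knockdown CD8 T cells. The cause was not tested. Deviations of same-numbered libraries correlated at -0.263 to 0.426 between groups of a cell type and experiment. Those of differently numbered libraries reached -0.435 and 0.454. Libraries of the 2 cell types with the same number were not compared, so whether the numbers pair samples is not known. The block changed no other count of the 8 genes. Read numbers limit the low genes: Ms4a2 and Fcer1a had at most 33 reads in a library.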
